A study of Homo sapiens with 9 samples.

Results

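The HOX cluster genes were taken as every listed gene whose symbol is HOXA, HOXB, HOXC or HOXD followed by a number, which leaves out antisense RNAs and pseudogenes. They numbered 36 of the 32906 genes listed in each library. The annotation holds 39 genes of this kind, and HOXB1, HOXD1 and HOXD13 were not analysed here. RNA sequencing was done on cells labelled Huh7, an established line derived from a human hepatocellular carcinoma. Cells received a scrambled control siRNA (Scramble) or 1 of 2 siRNAs against KDM4C, Si-KDM4C#1 and Si-KDM4C#2, with 3 libraries per group and 9 in all. All were collected 48 hours after transfection, and no other agent is named for these libraries. KDM4C is a demethylase of lysines 9 and 36 on histone H3. The comparison asks how HOX transcript levels differed when KDM4C mRNA was knocked down. All 3 groups carry the label of this single cell line, and both knockdown groups were compared with the same Scramble libraries.

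HOX genes encode homeodomain transcription factors that give cells their position along the body axis. They sit in 4 clusters, and genes of the same number in different clusters are paralogs that descend from one ancestral gene. Within a cluster all genes point the same way, and in the embryo those at the 3′ end, with low numbers, are expressed earlier and nearer the head than those at the 5′ end. Polycomb complexes keep the clusters silent where they are not used, trithorax (MLL) complexes keep them active, and retinoic acid is a classical inducer of the 3′ genes. Many tumours and tumour cell lines express HOX genes outside their embryonic domains.

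Values are FPKM, fragment counts scaled to exon length and library size, so levels can be compared between genes. A difference is in log2(FPKM + 1), which makes the fold of low genes smaller than the ratio of their FPKM. It was tested with limma in a fit over the 14363 genes whose mean reached 1 FPKM in any group, and p-values were adjusted over these by the Benjamini-Hochberg method. A gene is said to have risen or fallen where the adjusted p was under 0.05, and to be called where its fold also exceeded 2. The labels do not say that the 3 libraries of a group came from separate cultures, so the p-values measure the spread between these libraries, which may be technical. In bulk RNA, fewer cells that express a gene and less RNA of it per cell cannot be told apart. Fitted totals were 14597503 to 18058556 fragments per library, and libraries of the same group differed by more than counting error (2.67 to 6.32 in chi-square per degree of freedom). The targeted gene KDM4C had 4.88, 4.63 and 4.57 FPKM in Scramble, 1.18, 1.1 and 1.13 FPKM with Si-KDM4C#1, and 0.256, 0.349 and 0.256 FPKM with Si-KDM4C#2, and so was lowest with Si-KDM4C#2. Its paralog KDM4B, which also demethylates histone H3, had 6.67, 6.06 and 6.1 FPKM in Scramble, 6.42, 5.73 and 5.16 FPKM with Si-KDM4C#1, and 1.1, 1.17 and 1.26 FPKM with Si-KDM4C#2. KDM4B thus fell with Si-KDM4C#2 (log2 difference -1.74, adjusted p = 1.43e-07), and its part in any HOX value of that group was not tested.

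The hepatocyte markers did not match the labelled cell line. Of 12 hepatocyte markers 9 were listed, all 9 were under 1 FPKM in every library, and their sum was 0.181 to 0.201 FPKM in Scramble, 0.0483 to 0.0959 under Si-KDM4C#1 and 0.175 to 0.389 under Si-KDM4C#2. AFP and SERPINA1, which hepatoma cells of this kind are known for, were at 0 in both knockdown groups. Of 5 epithelial markers 4 were listed, and their sum, nearly all of it KRT8 and KRT18, was 330 to 353 FPKM in Scramble, 290 to 309 under Si-KDM4C#1 and 240.1 to 254 under Si-KDM4C#2, with CDH1 and KRT19 under 1 FPKM in every library. The 5 mesenchymal markers summed to 75.6 to 83.2, 79.7 to 84.0 and 94.1 to 94.7 FPKM in the same order, with COL1A2 at or near 0. Of the 4 mesenchymal markers tested, 1 was called lower with each siRNA, against 4.83% and 2.30% of all genes tested. With Si-KDM4C#1 1 rose and 1 fell (31.7% and 33.9% of all genes), and with Si-KDM4C#2 2 rose and 1 fell (34.4% and 25.0%). The part of these marker differences in the HOX values was not tested.

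The 5 HOX genes called in any comparison were HOXA7, HOXA10, HOXC10, HOXC11 and HOXD10. The homeoboxes of 4 of them are shown because 3 are the paralogs of group 10, which did not change in the same direction, and HOXC11 is the neighbour of HOXC10. A homeobox is the stretch of 180 bases that encodes the 60 residues of the DNA-binding homeodomain, and in each of these 4 it lies in the coding part of exon 2 of 2. The sequences are from GENCODE release 29 on GRCh38, at chr7:27171947-27172126 (minus strand) for HOXA10, chr12:53989219-53989398 (plus strand) for HOXC10, chr12:53975192-53975371 (plus strand) for HOXC11 and chr2:176119004-176119183 (plus strand) for HOXD10. Capitals mark the bases that differ from the base of HOXC10 at the same position.
HOXC10: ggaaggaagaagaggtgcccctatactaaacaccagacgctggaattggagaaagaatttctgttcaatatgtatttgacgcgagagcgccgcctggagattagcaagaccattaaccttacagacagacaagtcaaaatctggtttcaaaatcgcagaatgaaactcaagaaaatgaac
HOXA10: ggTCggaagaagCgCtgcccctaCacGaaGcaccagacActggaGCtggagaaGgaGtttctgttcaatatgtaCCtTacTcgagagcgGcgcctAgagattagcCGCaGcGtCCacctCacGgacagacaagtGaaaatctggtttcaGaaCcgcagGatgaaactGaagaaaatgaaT
HOXD10: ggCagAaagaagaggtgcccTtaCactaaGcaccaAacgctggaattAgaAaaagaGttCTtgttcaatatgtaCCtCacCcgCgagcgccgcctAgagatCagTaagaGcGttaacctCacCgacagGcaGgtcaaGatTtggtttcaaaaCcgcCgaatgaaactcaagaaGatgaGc
HOXC11: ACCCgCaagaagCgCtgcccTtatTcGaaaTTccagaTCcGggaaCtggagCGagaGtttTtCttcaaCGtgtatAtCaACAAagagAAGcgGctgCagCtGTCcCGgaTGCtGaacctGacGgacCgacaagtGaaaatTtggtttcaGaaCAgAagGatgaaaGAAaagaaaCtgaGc
HOXA10 differs from HOXC10 at 33 bases and HOXD10 at 31, whereas HOXC11 differs at 59. The encoded homeodomains of HOXA10 and HOXD10 share 93.3% and 95.0% of their residues with that of HOXC10. A homeobox was found in all 36 genes, and its bases were identical at a median of 81.7% between genes of the same paralog group (36 pairs) and 61.1% between genes of different groups (594 pairs). The longest run of identical bases between HOXC10 and HOXA10 transcripts was 17 bases, and between HOXC10 and HOXD10 it was 16.

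In Scramble, HOX expression was high at the 5′ end of clusters A and C (HOXC12 apart), high through the middle of cluster B, and low in cluster D. The mean was at least 10 FPKM for 8 of the 36 genes, from 5 to under 10 for 6, from 1 to under 5 for 12 and under 1 for 10. Summed over a cluster, the level was 80.8 ± 1.90 FPKM (SD, n = 3) for the 9 listed genes of cluster B, 49.6 ± 0.566 for the 9 of cluster C, 46.3 ± 1.47 for the 11 of cluster A and 10.4 ± 0.158 for the 7 of cluster D. By position, paralog groups 9 to 13 (15 genes) held 59.0% of the summed HOX level, groups 5 to 8 (11 genes) 31.3% and groups 1 to 4 (10 genes) 9.75%. Most of what groups 1 to 4 held came from HOXB2 and HOXB3, at 6.93 and 6.98 FPKM, while HOXA2 to HOXA4 were all under 1 FPKM.

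HOXB7, at 19.6 FPKM, was the highest HOX gene in Scramble, and each of its libraries was above every library of the next gene, HOXC13, at 14.9. HOXC13, HOXB9 (14), HOXA10 (13.1) and HOXA11 (13.1) followed each other in that order with overlapping libraries at each step. HOXC10 (11.8), HOXA13 (11.7) and HOXB8 (10.4) came next. The lowest were HOXD12, HOXD3, HOXA2, HOXC12 and HOXD4, each under 0.05 FPKM.

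**Figure D1:**
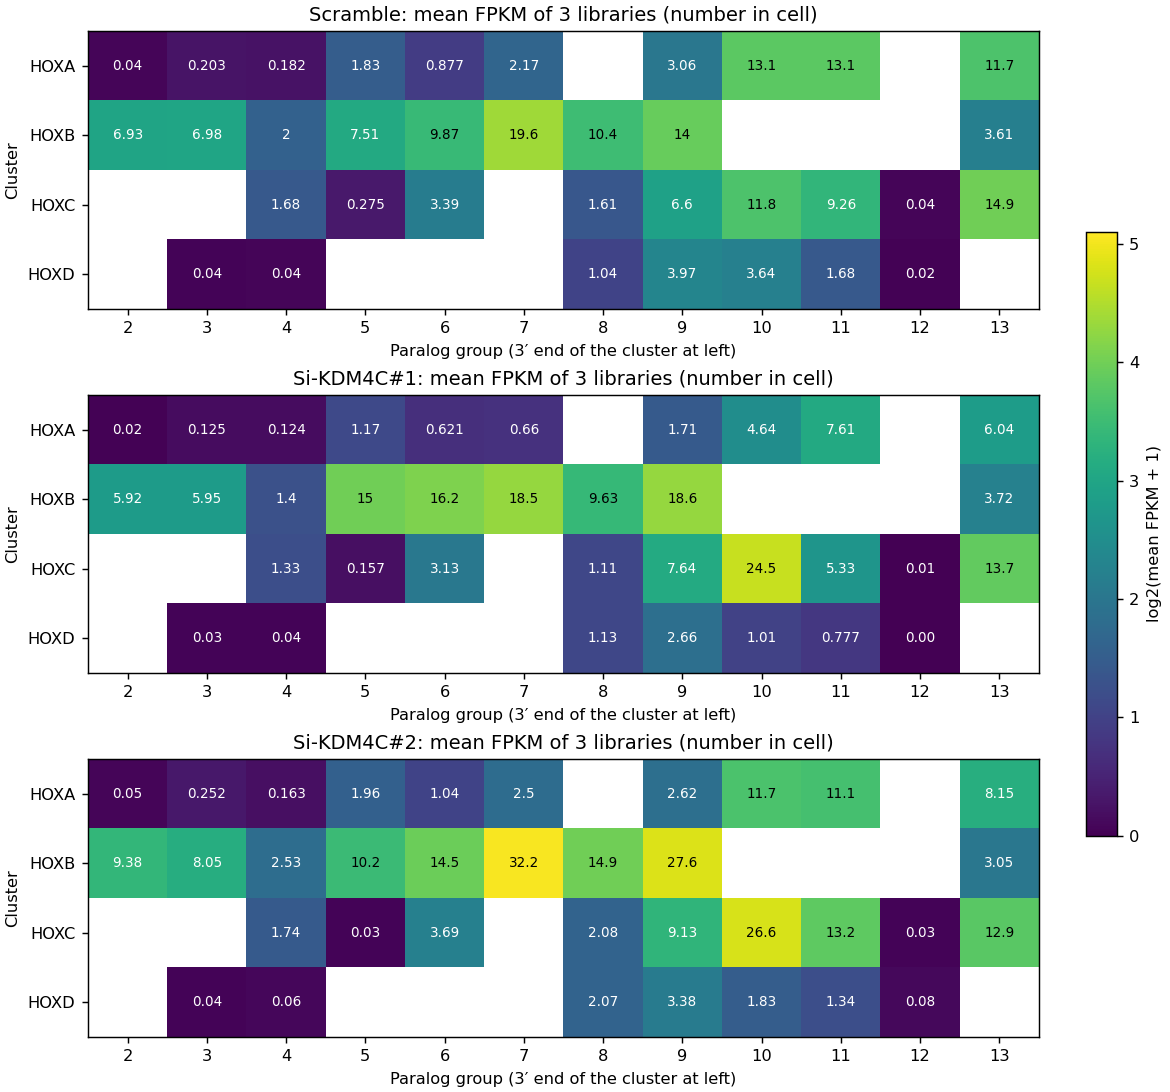
Mean FPKM of the listed HOX genes of paralog groups 2 to 13 by cluster (rows) and paralog group (columns, 3′ end at left), with 1 panel for each of Scramble, Si-KDM4C#1 and Si-KDM4C#2 (n = 3 libraries each) and colour for log2(mean FPKM + 1); white cells hold no listed gene. In Scramble the highest cell is HOXB7 at 19.6 FPKM, cluster A is above 10 FPKM at groups 10, 11 and 13, and groups 2 to 4 of cluster A and groups 3 and 4 of cluster D are dark.

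Of the 36 genes 27 reached a mean of 1 FPKM in some group and were tested. The other 9 included HOXA2, HOXA3, HOXA4, HOXC5, HOXC12, HOXD3, HOXD4 and HOXD12. These ran from 0 to 0.323 FPKM, were listed at 0 in 17 of 81 library values, and held at most 18 recovered fragments in a library. In the fit over all listed genes 0 of the 9 were called by limma in any comparison, and at an unadjusted p under 0.05 there were 1, 2 and 2 in the 3 comparisons. HOXC5 alone passed the adjusted p limit, with 0.294, 0.209 and 0.323 FPKM in Scramble and 0.0715, 0 and 0.0325 with Si-KDM4C#2 (log2 difference -0.30, adjusted p = 0.00235), and 59.9% of its exon bases are shared with other genes on the same strand. For all 9, the count was too low for a difference of modest size to be detectable at this depth.

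With Si-KDM4C#1, most tested genes of clusters A and D fell, and cluster B and C genes went both ways. Of the 27 tested genes 1 was called higher, HOXC10, against 4.04% of all genes tested, and 2 were called lower, HOXA10 and HOXD10, against 4.83%. Without the fold limit 4 rose (HOXB5, HOXB6, HOXB9 and HOXC10), where 31.7% of all genes did. Without it 14 fell, where 33.9% of all genes did, and 6 of those 14 were in cluster A, 3 in cluster B, 2 in cluster C and 3 in cluster D. The groups did not overlap for 20 of 27 genes, against 69.4% of all genes. The median log2 difference was -0.20 over the 27 genes and -0.03 over all genes tested. By cluster it was -0.71 for the 7 tested genes of cluster A, -0.08 for the 9 of B, -0.11 for the 7 of C and -0.52 for the 4 of D.

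With Si-KDM4C#2, most of cluster B rose, while HOXA13 and HOXD10 fell as they did with the other siRNA. HOXC10 was the 1 gene called higher (2.60% of all genes tested) and 0 were called lower by limma (2.30%), although 4 HOX genes fell without the fold limit, 5 were lower at an unadjusted p under 0.05, and voom on recovered fragments called HOXD10. The 4 that fell were HOXA10, HOXA13, HOXC13 and HOXD10, and 25.0% of all genes fell so. Without the fold limit 11 rose, 7 of them in cluster B, where 34.4% of all genes rose. The groups did not overlap for 17 of 27 genes, against 65.3% of all. The median log2 difference was 0.15 over the 27 genes and 0.06 over all genes tested, and 0.39 over the 9 of cluster B, 0.24 over the 7 of C, -0.15 over the 7 of A and -0.19 over the 4 of D. A GC adjustment made library by library took the median of the 27 to 0.01 and left no HOX gene called.

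Set against each other, the siRNAs left HOX levels that, where they differed, were mostly higher with Si-KDM4C#2. With Si-KDM4C#2 18 genes were higher than with Si-KDM4C#1 (35.9% of all genes tested) and 1 was lower, HOXB5 (26.5%). Of these, 3 passed the fold limit, HOXA7, HOXA10 and HOXC11 (4.41% of all genes), and 0 were called lower (2.49%), by limma or by voom, against 1 lower by adjusted p alone and 2 at an unadjusted p under 0.05. The groups did not overlap for 20 of 27 genes, against 69.3% of all, and the median log2 difference was 0.42 over the 27 and 0.08 over all genes tested.

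**Figure D2:**
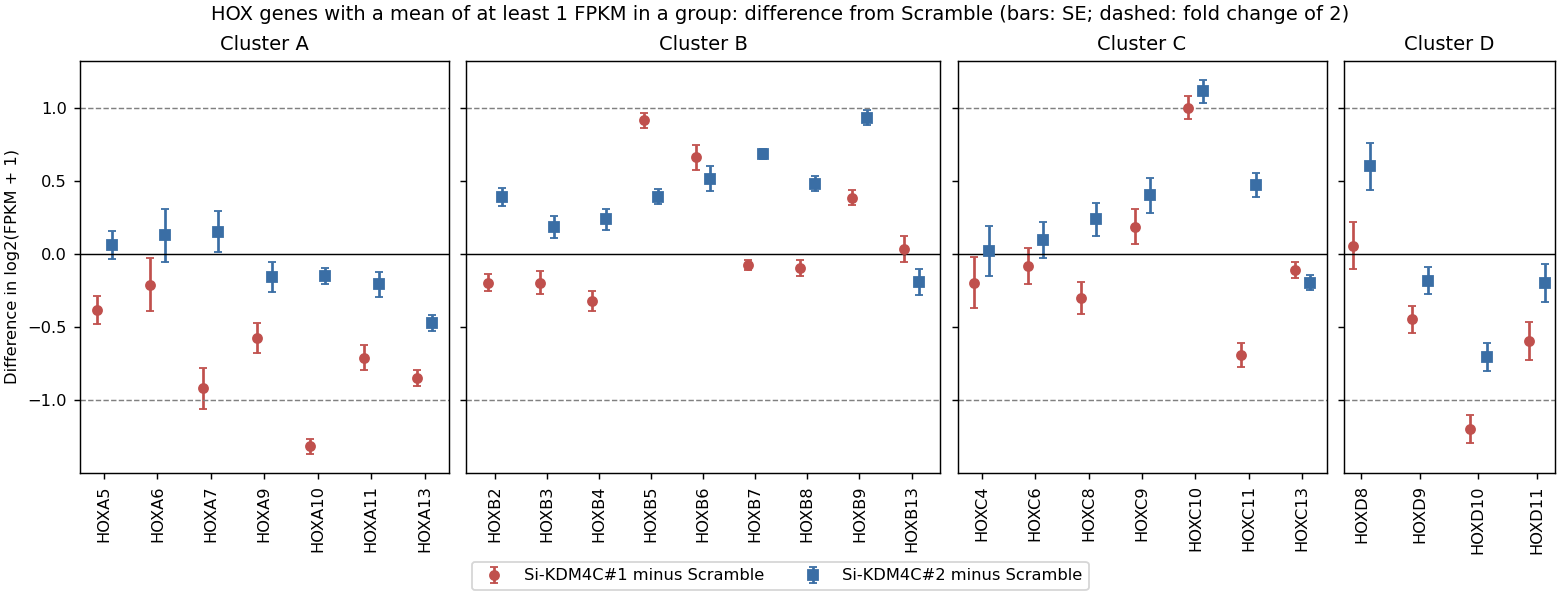
Difference in log2(FPKM + 1) from Scramble for the 27 tested HOX genes, by cluster from 3′ to 5′, with Si-KDM4C#1 (circles) and Si-KDM4C#2 (squares); bars are standard errors and dashed lines a fold of 2. HOXC10 reaches the upper line with both siRNAs (1.00 and 1.11), HOXA10 and HOXD10 pass the lower line with Si-KDM4C#1 only (-1.32 and -1.20), and HOXC11 lies on opposite sides of 0.

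The paralogs of group 10 differed in direction. HOXC10, known for the specification of lumbar motor neurons, had 10.8, 10.9 and 13.7 FPKM in Scramble, 24.2, 23.7 and 25.6 FPKM with Si-KDM4C#1, and 27.3, 26.4 and 26 FPKM with Si-KDM4C#2. Every knockdown library was above every Scramble library, and the 2 knockdown groups lay close together. The log2 difference was 1.00 (SE 0.079, adjusted p = 2.91e-06) with Si-KDM4C#1 and 1.11 (SE 0.079, adjusted p = 2.49e-06) with Si-KDM4C#2. Si-KDM4C#2 exceeded Si-KDM4C#1 by 0.11 (SE 0.079, adjusted p = 0.242, and 0.0415 without Scramble replicate 3). The value with Si-KDM4C#1 stood just inside the fold limit, and it fell below it when Scramble replicate 1 (0.95), Scramble replicate 2 (0.95) or Si-KDM4C#1 replicate 3 (0.97) was left out, though it still rose. HOXC10 shares 7.12% of its exon bases with other genes on the same strand and 2.70% with genes on the opposite strand.

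HOXA10, needed for the patterning of the uterus and active in blood progenitors, had 13.1, 13.8 and 12.3 FPKM in Scramble, 4.81, 4.47 and 4.65 FPKM with Si-KDM4C#1, and 11.3, 11.6 and 12.1 FPKM with Si-KDM4C#2. The Si-KDM4C#1 libraries stood far below the rest, and the Si-KDM4C#2 libraries were just below those of Scramble. It fell by 1.32 on the log2 scale with Si-KDM4C#1 (SE 0.052, adjusted p = 4.40e-08) and by 0.15 with Si-KDM4C#2 (SE 0.052, adjusted p = 0.0314). The second fall missed the limit without the filter on low genes (adjusted p = 0.0541) and without Scramble replicate 1 or 2 or Si-KDM4C#2 replicate 1 or 2 (adjusted p = 0.0634 to 0.117). The difference between the siRNAs was 1.17 (SE 0.052, adjusted p = 1.22e-07). Of the exon bases of HOXA10, 9.93% are shared with the same strand and 16.4% with the opposite strand, so reads of the overlapping AC004080.3 and HOXA10-AS cannot be wholly told apart from its own.

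HOXD10, which acts with HOXC10 in hindlimb motor neurons, had 3.12, 4.25 and 3.56 FPKM in Scramble, 1.07, 0.992 and 0.971 FPKM with Si-KDM4C#1, and 1.65, 1.89 and 1.96 FPKM with Si-KDM4C#2. Both knockdown groups were below Scramble without overlap, and Si-KDM4C#1 was the lower. It fell by 1.20 with Si-KDM4C#1 (SE 0.097, adjusted p = 3.39e-06) and by 0.71 with Si-KDM4C#2 (SE 0.097, adjusted p = 1.77e-04). In ratios of mean FPKM this was 0.277 and 0.503 of Scramble, and Si-KDM4C#2 exceeded Si-KDM4C#1 by 0.49 (SE 0.097, adjusted p = 0.00153). The values rest on 473 recovered fragments in the 3 Scramble libraries, 133 under Si-KDM4C#1 and 238 under Si-KDM4C#2, and 16.8% of its exon bases overlap HOXD11.

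HOXC11 and HOXA7 were called only in the comparison of the siRNAs with each other. HOXC11, the gene next to HOXC10 on its 5′ side and known from hindlimb patterning, had 10.2, 9.42 and 8.17 FPKM in Scramble, 5.56, 5.48 and 4.94 FPKM with Si-KDM4C#1, and 13.3, 12.2 and 14.1 FPKM with Si-KDM4C#2. Its 3 groups did not overlap, with Scramble in the middle. HOXC11 fell by 0.69 with Si-KDM4C#1 (SE 0.081, adjusted p = 4.43e-05), rose by 0.47 with Si-KDM4C#2 (SE 0.081, adjusted p = 7.86e-04), and differed by 1.16 between them (SE 0.081, adjusted p = 1.66e-06). None of its exon bases is shared with another gene.

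HOXA7, a gene of trunk patterning that is also active in blood precursors, had 2.83, 1.72 and 1.96 FPKM in Scramble, 0.551, 0.654 and 0.774 FPKM with Si-KDM4C#1, and 2.54, 2.91 and 2.07 FPKM with Si-KDM4C#2. The Si-KDM4C#1 libraries lay below all others, and those of Scramble and Si-KDM4C#2 overlapped. It fell by 0.92 with Si-KDM4C#1 (SE 0.141, adjusted p = 2.83e-04), just outside the fold limit although its ratio of mean FPKM was 0.304, and differed by 0.15 with Si-KDM4C#2 (SE 0.141, adjusted p = 0.375). Si-KDM4C#2 exceeded Si-KDM4C#1 by 1.07 (SE 0.141, adjusted p = 1.15e-04), and by 0.99 without Si-KDM4C#2 replicate 2. Without Scramble replicate 2 its difference with Si-KDM4C#1 was -1.02 and it would be called. HOXA7 rests on 77 fragments in the 3 Si-KDM4C#1 libraries. The antisense RNA HOXA-AS3 shares 62.5% of its exon bases on the opposite strand, so its reads cannot be told apart unless strand was used, and HOXA-AS3 itself was at 0.122, 0.111 and 0.180 FPKM in the 3 groups.

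**Figure D3:**
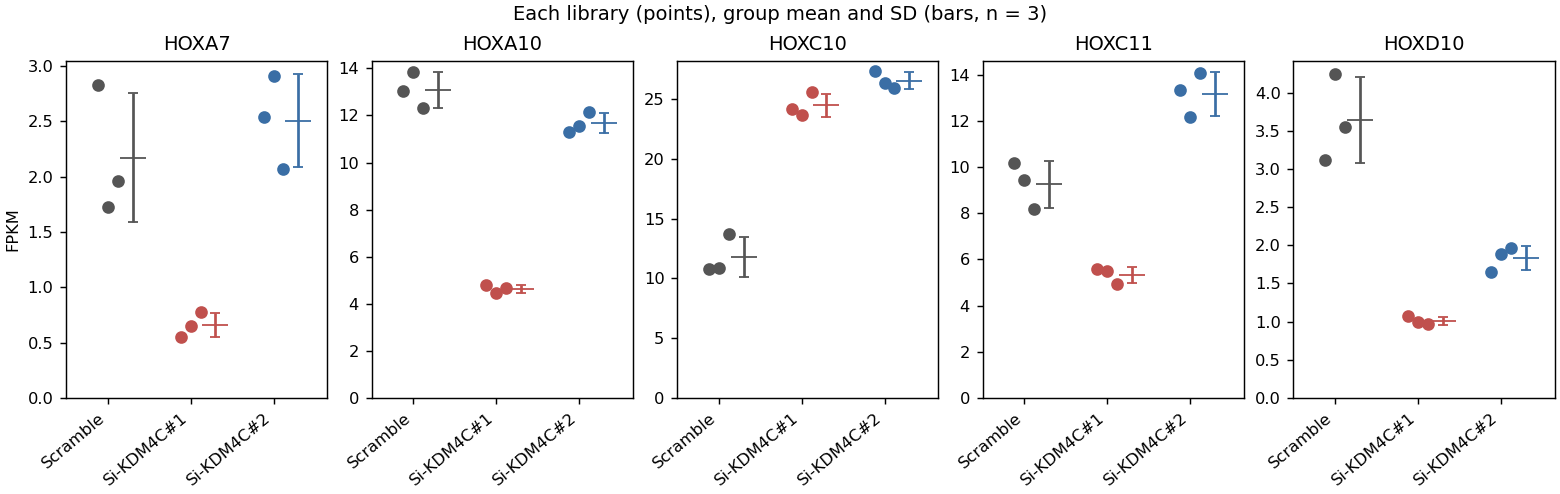
FPKM of the 5 HOX genes called in any comparison, with each library as a point and the mean and SD (n = 3) of each group beside it, each panel on its own axis from 0. HOXC10 is higher in all 6 knockdown libraries than in Scramble, HOXD10 is lower in all 6, and HOXA10, HOXC11 and HOXA7 are lowest in the 3 libraries with Si-KDM4C#1.

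The other tested genes of cluster A fell with Si-KDM4C#1 apart from HOXA6. HOXA13, a regulator of distal limb and urogenital development at the 5′ end, had 11.6, 11 and 12.4 FPKM in Scramble, 6.21, 6.21 and 5.71 FPKM with Si-KDM4C#1, and 7.88, 8.24 and 8.34 FPKM with Si-KDM4C#2. Both knockdown groups were below Scramble, and the log2 differences were -0.85 (SE 0.054, adjusted p = 7.12e-07) and -0.47 (SE 0.054, adjusted p = 5.55e-05). HOXA11, which acts in kidney, uterus and forearm, had 12.7, 12.1 and 14.3 FPKM in Scramble, 6.67, 7.51 and 8.63 FPKM with Si-KDM4C#1, and 11, 11.6 and 10.9 FPKM with Si-KDM4C#2. With Si-KDM4C#1 it fell by 0.71, and with Si-KDM4C#2 the difference was -0.21 (adjusted p = 0.0579). The latter passed the limit under quantile normalization (-0.30), voom (-0.29) and GC adjustment (-0.36), and without Scramble replicate 2, Si-KDM4C#1 replicate 1 or Si-KDM4C#1 replicate 3 (adjusted p = 0.0266 to 0.0455). HOXA11 shares 31.1% of its exon bases with HOXA11-AS on the opposite strand.

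HOXA9, a gene of blood progenitors that is prominent in leukaemia, had 3.0, 2.57 and 3.6 FPKM in Scramble, 1.81, 1.58 and 1.75 FPKM with Si-KDM4C#1, and 2.9, 2.67 and 2.3 FPKM with Si-KDM4C#2. It fell by 0.57 with Si-KDM4C#1 (adjusted p = 7.92e-04). HOXA9 shares 15.9% of its exon bases with the same strand and 13.9% with the opposite strand, and like HOXA10 it overlaps AC004080.3 and HOXA10-AS. HOXA5, needed for the lung and airway, had 1.63, 1.77 and 2.09 FPKM in Scramble, 1.17, 1.2 and 1.13 FPKM with Si-KDM4C#1, and 1.97, 2.22 and 1.68 FPKM with Si-KDM4C#2. It fell by 0.38 with Si-KDM4C#1 (adjusted p = 0.00601, and 0.0804 under quantile normalization), and its libraries in the other groups overlapped. HOXA6, a trunk gene, had 0.722, 1.27 and 0.636 FPKM in Scramble, 0.517, 0.96 and 0.387 FPKM with Si-KDM4C#1, and 1.36, 0.90 and 0.867 FPKM with Si-KDM4C#2. Its groups overlapped in every comparison with Scramble, and 39.3% of its exon bases are shared with genes on the opposite strand.

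Because HOXA9 and HOXA10 are neighbours that both fell with Si-KDM4C#1, the 250 bases before a start site of each are shown from the RefSeq promoter table (GRCh38.p14), at chr7:27165538-27165787 for HOXA9 and chr7:27174321-27174570 for HOXA10, both on the minus strand and free of annotated exons. Capitals mark matches on either strand to TATAAA, the core of a TATA box, and to CCAAT, a box read by the factor NF-Y.
HOXA9: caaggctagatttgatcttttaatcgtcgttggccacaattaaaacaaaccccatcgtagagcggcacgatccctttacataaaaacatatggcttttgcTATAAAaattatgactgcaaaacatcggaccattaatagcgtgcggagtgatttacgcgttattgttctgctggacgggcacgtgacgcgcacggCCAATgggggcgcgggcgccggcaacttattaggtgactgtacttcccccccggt
HOXA10: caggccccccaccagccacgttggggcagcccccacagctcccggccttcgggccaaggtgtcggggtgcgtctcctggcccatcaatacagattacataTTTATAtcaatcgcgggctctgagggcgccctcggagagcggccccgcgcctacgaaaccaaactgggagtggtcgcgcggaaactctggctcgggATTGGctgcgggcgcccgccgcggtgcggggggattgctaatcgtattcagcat
Both windows hold both motifs. The other RefSeq start of HOXA10, with a window at chr7:27179862-27180111, holds both as well and is not shown because it overlaps annotated exons. Other genes of cluster A that fell with Si-KDM4C#1 did not share both motifs. HOXA7 and HOXA13 had CCAAT alone, HOXA11 had neither, and HOXA5 had no window. Apart from HOXA9 and HOXA10, TATAAA was found in a window of HOXA3 only. The table had 24 windows of 300 bases for 17 of the 36 HOX genes. No gene of cluster B had a window, nor did HOXC10 or HOXC11. HOXA3, under 1 FPKM in every library, had more of the windows than any other gene. Of those windows 16.7% held TATAAA and 62.5% CCAAT, against 11.5% and 34.6% of all 35116 windows. CG steps numbered a median of 21.5 in HOX windows and 14 in all. Some HOX windows overlap or are shared between genes, and a match is a description of the letters, not a site.

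Cluster B held the genes that rose with both siRNAs apart from HOXC10. HOXB5, a gene of neural crest and enteric neurons, had 7.92, 7.43 and 7.18 FPKM in Scramble, 14.7, 15.7 and 14.8 FPKM with Si-KDM4C#1, and 10.7, 9.73 and 10.1 FPKM with Si-KDM4C#2. All 3 groups were apart, with Scramble lowest and Si-KDM4C#1 highest. HOXB5 rose by 0.92 with Si-KDM4C#1 (SE 0.051, adjusted p = 3.24e-07), just outside the fold limit at a ratio of mean FPKM of 2.00, and by 0.39 with Si-KDM4C#2 (adjusted p = 1.31e-04). Between the siRNAs its log2 difference was -0.52 (adjusted p = 1.56e-05). HOXB13 (-0.23), HOXB6 (-0.15) and HOXC13 (-0.09) also had lower means under Si-KDM4C#2 than under Si-KDM4C#1, which missed the adjusted p limit but passed it under voom (adjusted p = 0.00419, 0.00240 and 0.0171).

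HOXB6, a neighbouring trunk gene, had 10.7, 9.25 and 9.66 FPKM in Scramble, 15.6, 18.3 and 14.8 FPKM with Si-KDM4C#1, and 15.7, 13.6 and 14.4 FPKM with Si-KDM4C#2. It rose by 0.66 and 0.52 (adjusted p = 8.12e-05 and 5.63e-04), without overlap with Scramble. HOXB6 shares 16.6% of its exon bases on the same strand, where HOXB3 overlaps it, and 16.3% on the opposite strand, where HOXB-AS3 does. HOXB9, a thoracic gene at the 5′ side of the main block of cluster B, had 13.8, 13.5 and 14.6 FPKM in Scramble, 19.7, 18.2 and 17.7 FPKM with Si-KDM4C#1, and 26.3, 27.7 and 28.7 FPKM with Si-KDM4C#2. It rose by 0.38 (adjusted p = 1.07e-04) and by 0.93 (adjusted p = 5.16e-07), the latter just outside the fold limit at a ratio of 1.97.

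HOXB7 and HOXB8 rose with Si-KDM4C#2. HOXB7, the highest HOX gene in Scramble and a gene often raised in carcinomas, had 19.6, 19.5 and 19.7 FPKM in Scramble, 18.3, 18.6 and 18.8 FPKM with Si-KDM4C#1, and 32.5, 31.1 and 32.9 FPKM with Si-KDM4C#2. Its difference was -0.08 with Si-KDM4C#1 (adjusted p = 0.0798, and -0.22 with adjusted p = 4.72e-04 under quantile normalization) and 0.69 with Si-KDM4C#2 (adjusted p = 3.18e-07), and the siRNAs differed by 0.76 (adjusted p = 1.27e-07). HOXB8, known from microglia and blood progenitors, had 9.88, 10.2 and 11.1 FPKM in Scramble, 9.94, 9.12 and 9.83 FPKM with Si-KDM4C#1, and 15.3, 15.1 and 14.3 FPKM with Si-KDM4C#2. It rose by 0.48 with Si-KDM4C#2 (adjusted p = 4.24e-05), and exceeded Si-KDM4C#1 there by 0.58. With Si-KDM4C#1 the difference was -0.10 (adjusted p = 0.134), and -0.26 (adjusted p = 0.00477) under GC adjustment.

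The 3′ genes HOXB2, HOXB3 and HOXB4 had means below Scramble with Si-KDM4C#1 and above it with Si-KDM4C#2, by small amounts. HOXB2, a hindbrain gene, had 7.15, 7.16 and 6.49 FPKM in Scramble, 5.81, 6.1 and 5.86 FPKM with Si-KDM4C#1, and 9.09, 8.83 and 10.2 FPKM with Si-KDM4C#2. It rose by 0.39 (adjusted p = 4.52e-04) with Si-KDM4C#2. With Si-KDM4C#1 the difference was -0.20 (adjusted p = 0.0180), which missed the limit under quantile normalization (adjusted p = 0.0705), under voom (adjusted p = 0.189) and without Scramble replicate 1, Scramble replicate 2 or Si-KDM4C#1 replicate 1 (adjusted p = 0.0521 to 0.0601). HOXB4, known for the expansion of blood stem cells, had 2.08, 2.06 and 1.86 FPKM in Scramble, 1.33, 1.48 and 1.41 FPKM with Si-KDM4C#1, and 2.46, 2.62 and 2.53 FPKM with Si-KDM4C#2. The differences were -0.32 (adjusted p = 0.00252) and 0.24 (adjusted p = 0.0149), with no overlap between the 3 groups. The second missed the limit under GC adjustment (0.09, adjusted p = 0.257), under voom (adjusted p = 0.0798), and without Scramble replicate 3 or Si-KDM4C#2 replicate 2 (adjusted p = 0.0514 and 0.0513). HOXB4 shares 17.1% of its exon bases with other genes on the same strand.

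HOXB3, another hindbrain gene, had 7.85, 6.31 and 6.78 FPKM in Scramble, 6.1, 6.26 and 5.5 FPKM with Si-KDM4C#1, and 8.08, 7.65 and 8.42 FPKM with Si-KDM4C#2. With Si-KDM4C#1 the difference was -0.20 (adjusted p = 0.0459), which missed the limit under quantile normalization (adjusted p = 0.104), under voom (adjusted p = 0.0551) and without any 1 library other than Scramble replicate 2 or Si-KDM4C#1 replicate 2 (adjusted p = 0.0544 to 0.153). With Si-KDM4C#2 it was 0.19 (adjusted p = 0.0613), and 0.26 (adjusted p = 0.00941) without Scramble replicate 1. HOXB13, a prostate and distal gut gene set apart from the rest of the cluster, had 3.78, 3.48 and 3.55 FPKM in Scramble, 3.87, 3.42 and 3.88 FPKM with Si-KDM4C#1, and 2.57, 3.04 and 3.55 FPKM with Si-KDM4C#2. Its difference with Si-KDM4C#1 was 0.03 (adjusted p = 0.750) and turned to -0.11 under GC adjustment. With Si-KDM4C#2 it was -0.19 (adjusted p = 0.0927), which passed the limit under GC adjustment (-0.38, adjusted p = 0.00562), under voom (-0.31, adjusted p = 0.0383) and without Si-KDM4C#2 replicate 3 (adjusted p = 0.0198).

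The other tested genes of cluster C differed less from Scramble. HOXC13, a regulator of hair keratins at the 5′ end, had 14.1, 16 and 14.7 FPKM in Scramble, 13.6, 13.8 and 13.8 FPKM with Si-KDM4C#1, and 12.3, 12.9 and 13.5 FPKM with Si-KDM4C#2. It fell by 0.20 with Si-KDM4C#2 (adjusted p = 0.00964). With Si-KDM4C#1 the difference was -0.11 (adjusted p = 0.0953), and it passed the limit under GC adjustment (-0.26, adjusted p = 0.00723), under quantile normalization (-0.20, adjusted p = 0.0149) and without Scramble replicate 1 (adjusted p = 0.0361). HOXC9, which sets thoracic motor neuron identity, had 7.34, 6.14 and 6.33 FPKM in Scramble, 7.88, 8.04 and 7.01 FPKM with Si-KDM4C#1, and 11.2, 7.69 and 8.48 FPKM with Si-KDM4C#2. It rose by 0.40 with Si-KDM4C#2 (adjusted p = 0.0154), where 1 library was well above the other two. This missed the limit under GC adjustment (0.24, adjusted p = 0.0817) and without Scramble replicate 2 (adjusted p = 0.0527).

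HOXC8, a gene of brachial motor neurons, had 1.68, 1.83 and 1.33 FPKM in Scramble, 0.967, 1.12 and 1.25 FPKM with Si-KDM4C#1, and 1.78, 2.08 and 2.39 FPKM with Si-KDM4C#2. With Si-KDM4C#1 the difference was -0.30 (adjusted p = 0.0350), which missed the limit under quantile normalization (-0.15, adjusted p = 0.277), under voom (adjusted p = 0.111), without the filter on low genes (adjusted p = 0.0899), and without Scramble replicate 1 or 2, Si-KDM4C#1 replicate 1 or 2, or Si-KDM4C#2 replicate 2 (adjusted p = 0.0502 to 0.118). With Si-KDM4C#2 it was 0.24 (adjusted p = 0.0921). HOXC6, a trunk gene, had 4.06, 3.11 and 3.0 FPKM in Scramble, 3.25, 2.79 and 3.34 FPKM with Si-KDM4C#1, and 3.94, 2.98 and 4.16 FPKM with Si-KDM4C#2. HOXC4, a cervical gene that starts inside the HOXC6 region, had 1.6, 2.12 and 1.31 FPKM in Scramble, 1.08, 1.31 and 1.6 FPKM with Si-KDM4C#1, and 2.25, 1.84 and 1.12 FPKM with Si-KDM4C#2. Neither passed a test in any comparison, their groups overlapped, and 15.7% of the exon bases of HOXC6 and 17.8% of those of HOXC4 are shared with genes on the same strand.

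In cluster D, HOXD9 and HOXD11 fell with Si-KDM4C#1, and HOXD8 rose with Si-KDM4C#2. HOXD9, a gene of limb and lumbar patterning, had 3.86, 4.14 and 3.9 FPKM in Scramble, 3.08, 2.23 and 2.66 FPKM with Si-KDM4C#1, and 3.07, 3.78 and 3.29 FPKM with Si-KDM4C#2. It fell by 0.45 (adjusted p = 0.00201) with Si-KDM4C#1. With Si-KDM4C#2 the difference was -0.18 (adjusted p = 0.117), and -0.50 (adjusted p = 0.00238) under GC adjustment. HOXD11, which acts with HOXA11 in the forearm and kidney, had 1.95, 1.46 and 1.63 FPKM in Scramble, 0.892, 0.909 and 0.531 FPKM with Si-KDM4C#1, and 1.53, 1.43 and 1.06 FPKM with Si-KDM4C#2. It fell by 0.60 (adjusted p = 0.00265) with Si-KDM4C#1, and 21.4% of its exon bases overlap HOXD10. With Si-KDM4C#2 the difference was -0.20 (adjusted p = 0.217), and -0.58 (adjusted p = 0.00203) under GC adjustment. HOXD8, a trunk gene, had 1.23, 0.718 and 1.15 FPKM in Scramble, 1.54, 0.73 and 1.11 FPKM with Si-KDM4C#1, and 2.33, 2.15 and 1.74 FPKM with Si-KDM4C#2. It rose by 0.60 with Si-KDM4C#2 (adjusted p = 0.00950), with every library of that group above all others, but missed the limit under GC adjustment (0.38, adjusted p = 0.0558), and its difference with Si-KDM4C#1 was 0.06 (adjusted p = 0.777). Against Si-KDM4C#1 the values with Si-KDM4C#2 were higher by 0.54 for HOXD8, 0.26 for HOXD9 and 0.40 for HOXD11 (adjusted p = 0.0143, 0.0326 and 0.0232). All 3 missed the limit under quantile normalization (adjusted p = 0.0554, 0.283 and 0.138). Without the filter on low genes HOXD9 and HOXD11 missed it (adjusted p = 0.0832 and 0.0662). HOXD9 missed it too under voom (adjusted p = 0.311), under GC adjustment (0.108) and in a fit of the libraries of the 2 siRNAs alone (0.0613). HOXD8 also missed it without Si-KDM4C#1 replicate 2 or Si-KDM4C#2 replicate 1, HOXD9 without replicate 2 or 3 of either siRNA, and HOXD11 without Si-KDM4C#1 replicate 3 or Si-KDM4C#2 replicate 1 or 2 (adjusted p = 0.0514 to 0.117).

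Summed over clusters, the level of cluster A was 22.8 ± 0.665 FPKM (SD, n = 3) with Si-KDM4C#1 and 39.6 ± 0.841 with Si-KDM4C#2, against 46.3 in Scramble. Cluster D had 5.65 ± 0.915 and 8.81 ± 0.726 against 10.4. Clusters B and C were above Scramble with both siRNAs, at 95.0 ± 2.34 and 122 ± 2.87 FPKM for B and 57.0 ± 0.707 and 69.3 ± 3.11 for C. With Si-KDM4C#1 these sums did not reflect most genes, as 5 of 9 tested genes of B and 5 of 7 of C were below Scramble. The mean of HOXC10 alone went from 11.8 to 24.5 FPKM there, and in B the means of HOXB5, HOXB6 and HOXB9 rose. The sum over all 36 genes was 187 ± 2.79 FPKM in Scramble, 180.4 ± 1.22 under Si-KDM4C#1 and 240.1 ± 4.11 under Si-KDM4C#2, so clusters B and C together took a larger share of it in both knockdown groups. These sums are descriptions and were not tested.

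**Figure D4:**
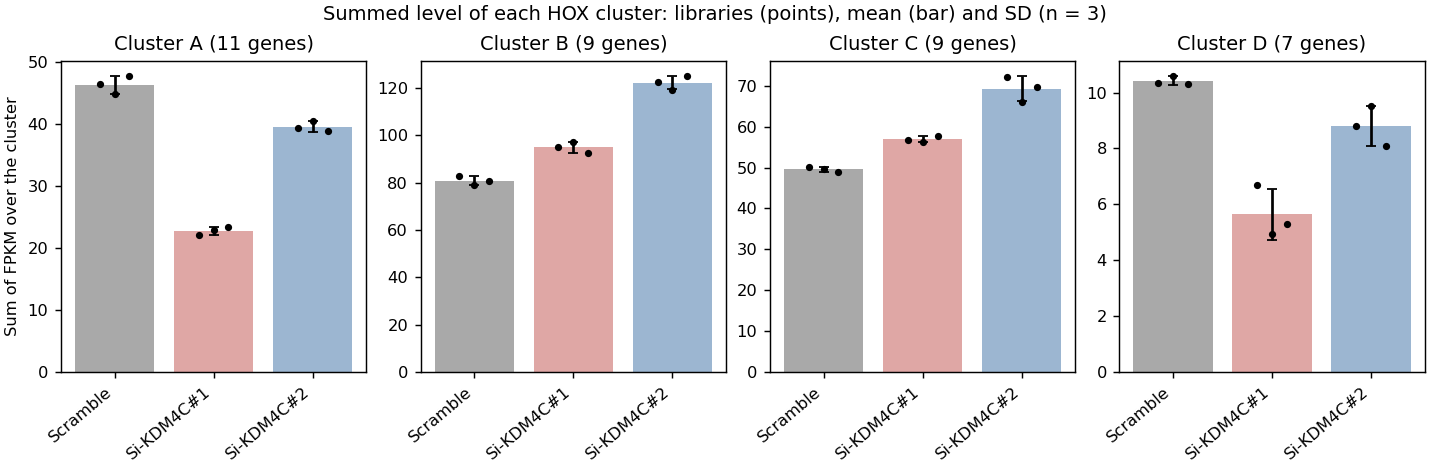
Summed FPKM of the listed genes of each HOX cluster in every library (points), with the group mean (bar from 0) and SD (n = 3). Cluster A is lowest in the 3 libraries with Si-KDM4C#1 (22.1 to 23.4 FPKM), and cluster B is highest in the 3 with Si-KDM4C#2 (119 to 125 FPKM).

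Long noncoding RNAs of the clusters were listed for 17 symbols, of which 13 were tested. For this list and those that follow, the shares of all genes tested that rose and fell without the fold limit were 31.7% and 33.9% under Si-KDM4C#1 and 34.4% and 25.0% under Si-KDM4C#2. The shares called higher and lower were 4.04% and 4.83% under Si-KDM4C#1, 2.60% and 2.30% under Si-KDM4C#2, and 4.41% and 2.49% for Si-KDM4C#2 against Si-KDM4C#1. The median log2 differences of all genes were -0.03 under Si-KDM4C#1 and 0.06 under Si-KDM4C#2. With Si-KDM4C#1 HOTAIR was the 1 called, lower, while 2 rose and 6 fell without the fold limit, and with Si-KDM4C#2 0 were called by limma, with 3 rising and 1 falling. The medians of the 13 were -0.24 and 0.22. HOTAIR, which is transcribed between HOXC11 and HOXC12 and is known for its link to Polycomb repression of cluster D, had 12.4, 13.5 and 12.7 FPKM in Scramble, 5.3, 6.42 and 5.79 FPKM with Si-KDM4C#1, and 13.8, 13.8 and 13.1 FPKM with Si-KDM4C#2. Like HOXC11, it was lowest in the Si-KDM4C#1 libraries (log2 difference -1.02, adjusted p = 5.67e-07), and with Si-KDM4C#2 the difference was 0.07 (adjusted p = 0.342). HOTTIP, transcribed from beyond HOXA13 and known to keep the 5′ end of cluster A active, had 1.85, 1.69 and 1.77 FPKM in Scramble, 1.17, 1.48 and 1.38 FPKM with Si-KDM4C#1, and 2.73, 3.23 and 2.45 FPKM with Si-KDM4C#2. It fell by 0.24 with Si-KDM4C#1 (adjusted p = 0.0438) and rose by 0.45 with Si-KDM4C#2 (adjusted p = 0.00235), where HOXA13 fell.

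HOXB-AS1, antisense to HOXB2 and HOXB3, had 3.74, 2.38 and 3.33 FPKM in Scramble, 1.07, 1.27 and 1.2 FPKM with Si-KDM4C#1, and 2.07, 2.64 and 3.23 FPKM with Si-KDM4C#2, a fall of 0.92 with Si-KDM4C#1 (adjusted p = 3.52e-04). HOXB-AS3, antisense to HOXB5 and HOXB6, had 10.4, 9.4 and 7.23 FPKM in Scramble, 15.4, 14.4 and 10.6 FPKM with Si-KDM4C#1, and 12.3, 11.4 and 11 FPKM with Si-KDM4C#2, and rose by 0.53 with Si-KDM4C#1 (adjusted p = 0.00923), as HOXB5 and HOXB6 did. HOXD-AS2 had 0.973, 0.88 and 1.27 FPKM in Scramble, 0.116, 0.144 and 0.61 FPKM with Si-KDM4C#1, and 0.813, 0.764 and 0.902 FPKM with Si-KDM4C#2, with 1 of the Si-KDM4C#1 libraries nearer to the other groups than to its own. Whether reads were assigned by strand is not given in the sources used here, so antisense RNAs and the HOX genes they overlap cannot be wholly told apart.

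**Figure D5:**
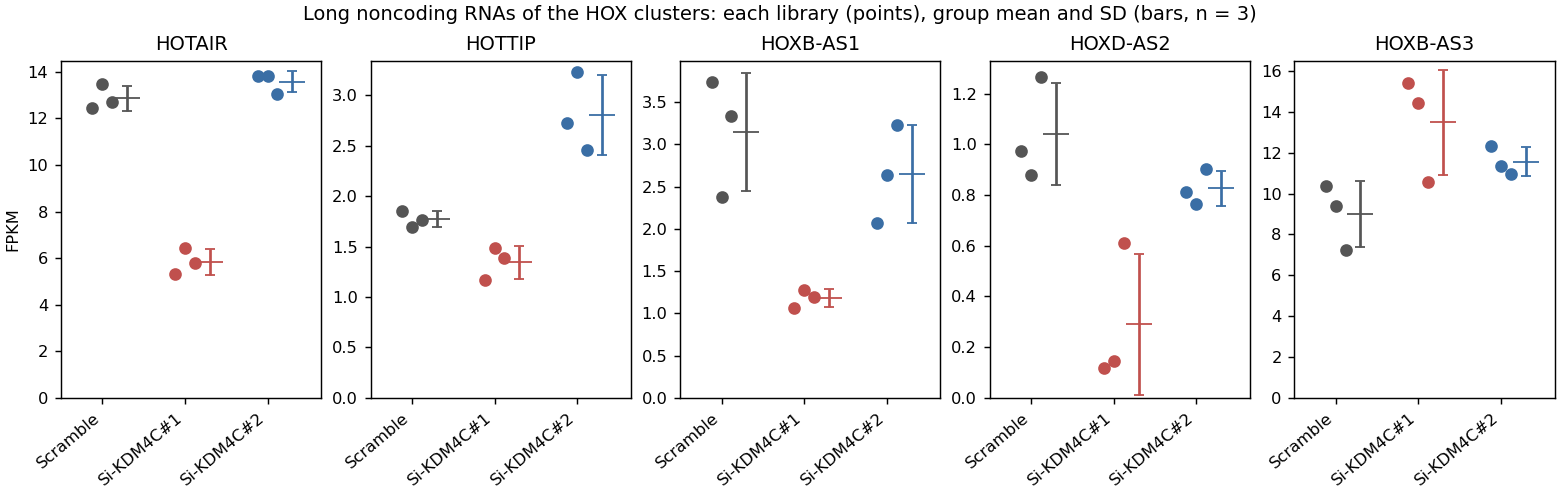
FPKM of 5 long noncoding RNAs of the HOX clusters, with each library as a point and the mean and SD (n = 3) of each group beside it, each panel on its own axis from 0. HOTAIR is at 5.30 to 6.42 FPKM with Si-KDM4C#1 and at 12.4 or above in the other 6 libraries, and HOTTIP is highest with Si-KDM4C#2.

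Regulators of the clusters moved in both directions. Of 12 genes of Polycomb repressive complex 2, which places the H3K27 methyl mark, 1 was called lower with Si-KDM4C#1 and 0 with Si-KDM4C#2, where 7 rose and 1 fell without the fold limit (with Si-KDM4C#1 6 rose and 4 fell). The medians were 0.12 under Si-KDM4C#1 and 0.45 under Si-KDM4C#2. The 1 called was SUZ12, a core subunit, with 22.3, 22.7 and 23.2 FPKM in Scramble, 10.2, 9.8 and 8.28 FPKM with Si-KDM4C#1, and 23.2, 23.9 and 24.1 FPKM with Si-KDM4C#2 (log2 difference -1.19, adjusted p = 2.86e-07, with Si-KDM4C#1). Of 17 genes of Polycomb repressive complex 1, 2 were called higher with each siRNA and 0 lower, while without the fold limit 8 rose and 5 fell with Si-KDM4C#1 and 12 rose and 2 fell with Si-KDM4C#2, at medians of 0.16 and 0.28. CBX2, a subunit that binds the H3K27 mark, was called with both and had 13.8, 13.6 and 13.1 FPKM in Scramble, 29.6, 28.9 and 29.5 FPKM with Si-KDM4C#1, and 36.2, 30.9 and 31.9 FPKM with Si-KDM4C#2.

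Of 13 trithorax-side genes (MLL complex subunits, DOT1L and the H3K27 demethylases), 0 were called with Si-KDM4C#1 by limma, with 4 rising and 6 falling without the fold limit. With Si-KDM4C#2 DOT1L was called higher and DPY30 lower, among 5 that rose and 1 that fell, and the medians were -0.19 and 0.09. Of 8 listed TALE cofactors, the homeodomain partners with which HOX proteins bind DNA, 7 were tested and 0 were called against Scramble with either siRNA, while 1 rose and 3 fell with Si-KDM4C#1 and 4 rose and 0 fell with Si-KDM4C#2, at medians of -0.17 and 0.23. PBX2, the most abundant of them, had 12.5, 12.2 and 11.6 FPKM in Scramble, 10.9, 11.1 and 9.26 FPKM with Si-KDM4C#1, and 26.5, 23.2 and 24.2 FPKM with Si-KDM4C#2, and was called between the siRNAs.

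Of 9 listed genes of retinoid signalling and the CDX factors 6 were tested. CRABP2, which carries retinoic acid to its receptors, was called lower with both siRNAs and had 25.3, 25.6 and 32 FPKM in Scramble, 11.6, 10.7 and 9.84 FPKM with Si-KDM4C#1, and 12.1, 14.4 and 11.2 FPKM with Si-KDM4C#2. RARG, a retinoic acid receptor, was called higher with Si-KDM4C#2 (log2 difference 1.05, adjusted p = 9.19e-07). It also rose with Si-KDM4C#1, inside the fold limit (0.90, adjusted p = 1.34e-06). Of these 6, 3 rose and 3 fell with Si-KDM4C#1, and 4 rose and 2 fell with Si-KDM4C#2, at medians of 0.26 and 0.31. Of 9 listed genes that flank the clusters 6 were tested, and SKAP2, beyond the 3′ end of cluster A, was called lower with Si-KDM4C#1, at 4.78, 4.69 and 4.76 FPKM in Scramble, 1.63, 1.76 and 1.51 FPKM with Si-KDM4C#1, and 2.59, 2.41 and 2.34 FPKM with Si-KDM4C#2. Of the 6, 1 rose and 4 fell with Si-KDM4C#1, and 1 rose and 3 fell with Si-KDM4C#2, at medians of -0.42 and -0.20. No relation between any of these lists and the HOX genes was tested.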

How the data were processed

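RNA sequencing was done on 9 libraries, 3 for each of Scramble, Si-KDM4C#1 and Si-KDM4C#2. FPKM values were deposited by the authors as a separate list for each library. Their processing notes name HISAT2 2.1.0, StringTie 1.3.3b, FastQC 0.11.5 and GRCh38. The notes also name a package for differential expression, at version 1.28.0, which was not used here. The annotation and strand setting are not given in the sources used here, and no scaling of the FPKM values between libraries is stated. With GENCODE release 29 exon lengths, 97.5% of genes gave whole fragments within 0.05 in all libraries, which yielded the totals per library. Counts and floors cover counting error only.

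Differences were fitted with limma 3.58.1 (trend, R 4.3.3) on log2(FPKM + 1) over all 9 libraries, after testing on simulated data. The HOX genes, the gene lists and the naming rule were chosen with earlier results of these data known. The rule gave every library value for HOX genes whose mean reached 1 FPKM in a group and statistics for those called. The alternatives were other scalings, pseudocounts, filters, limits and fits, a replicate block, voom on recovered fragments, GC adjustment and leaving out each library. Real-time PCR, blots and irradiation were not analysed here, and some items are not reported here. Figures were drawn with matplotlib 3.10.9.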

Additional observations from a re-analysis of the deposited data

Results flagged for a closer look

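HOXA10, HOXA7 and HOXC11 differed between the 2 knockdown groups by the direct test (limma, adjusted p = 1.22e-07, 1.15e-04 and 1.66e-06). The log2 difference, Si-KDM4C#2 minus Si-KDM4C#1, was 1.17 for HOXA10, 1.07 for HOXA7 and 1.16 for HOXC11, and every library with Si-KDM4C#2 was above every library with Si-KDM4C#1 for each. For HOXC11 both groups also differed from Scramble, in opposite directions.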

How the results depend on the processing

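The count called higher with Si-KDM4C#1 (1) became 0 under quantile normalization and under GC adjustment, 2 under voom on recovered fragments and 4 without the fold limit. The count called lower (2) became 4 with a pseudocount of 0.1 and under voom, 1 with at least 1 FPKM in every library, 3 under GC adjustment, and 14 without the fold limit. With Si-KDM4C#2, the count higher (1) became 0 under GC adjustment and 11 without the fold limit, and the count lower (0) became 1 under voom and 4 without the fold limit. Between the siRNAs, the count higher (3) became 2 under quantile normalization and 18 and the count lower (0) became 1 without the fold limit. Leaving out 1 library gave 0 to 1 higher and 2 to 3 lower for Si-KDM4C#1. For Si-KDM4C#2 it gave 1 higher and 0 lower, and between the siRNAs 2 to 3 higher and 0 lower.

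HOXC10 with Si-KDM4C#1 was 0.89 under quantile normalization and 0.93 under GC adjustment, with Si-KDM4C#2 it was 0.99 under GC adjustment, and HOXA7 between the siRNAs was 0.88 under quantile normalization. These missed the fold limit and passed the adjusted p. HOXA7 with Si-KDM4C#1 passed it at -1.56 (pseudocount of 0.1), -1.62 (voom) and -1.02 (GC adjustment), as did HOXD11 at -1.04 and -1.06 (pseudocount of 0.1 and voom), HOXB5 at 1.07 (voom) and, with Si-KDM4C#2, HOXD10 at -1.04 (voom).

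Direction changed in small differences alone. GC adjustment gave -0.11 for HOXB13 and -0.12 for HOXD8 with Si-KDM4C#1, and -0.12 for HOXA6, -0.016 for HOXC6 and -0.026 for HOXC4 with Si-KDM4C#2. Voom gave -0.053 for HOXC4 with Si-KDM4C#2 and -0.011 for HOXC10 between the siRNAs, and quantile normalization 0.014 for HOXC6 with Si-KDM4C#1. Leaving out 1 library gave -0.081 to 0.20 for HOXD8 and -0.15 to 0.023 for HOXC6 with Si-KDM4C#1, and -0.00054 to 0.13 for HOXA5 and -0.12 to 0.19 for HOXC4 with Si-KDM4C#2. The cause was not tested.

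By adjusted p alone, 12 of the 52 rises and falls missed 0.05 under at least 1 alternative and 13 of the other 29 results passed it. Quantile normalization lost 8, voom 5, the fit without a filter 5 and GC adjustment 4.

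With the replicate number as a block the counts were 1 and 2, 1 and 0, and 3 and 0, the 81 gene results kept their direction, and none gained or lost a call. By adjusted p alone the block lost HOXC8 and HOXB3 with Si-KDM4C#1 (0.0512 and 0.0518), HOXA10 with Si-KDM4C#2 (0.0565) and HOXD9 between the siRNAs (0.0606), and gained HOXA11 with Si-KDM4C#2 (0.0446). Deviations of same-numbered libraries correlated at a mean r of 0.016 (9 pairs) and others at -0.0081 (18 pairs), so the numbers were not treated as pairs.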
